A study of Bos taurus with 8 samples.

Results

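Adherens junctions and desmosomes are the structures that hold epithelial cells to each other, and the 9 genes described here encode their main parts. They are CDH1, CTNNB1, CTNNA1, CTNND1, DSP, DSG2, DSC2, JUP and PKP2, chosen by name, and each matched 1 gene of the 14970 in the deposited table. The 8 libraries are total RNA of bovine trophectoderm, the embryo's outer layer, which had grown out in culture from embryos produced in vitro. Hatched embryos were plated on collagen IV on day 10 and kept in trophectoderm medium, and outgrowths were collected on day 41 (n = 4, libraries E, F, G and H) or on day 35 (n = 4, libraries A, B, C and D). Both groups carried the same medium and substrate and differed only in the day of collection, as far as the labels say. The labels describe RNA of outgrowths from individual embryos, and sample number 1 occurs on both days, with nothing to say whether it was 1 embryo. An outgrowth is bulk material, so fewer cells of a type and less RNA per cell cannot be told apart.

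In an adherens junction, the outer domains of cadherins on neighbouring cells bind each other in the presence of calcium, and the inner tail binds catenins, which link it to actin filaments. In a desmosome, desmogleins and desmocollins take the place of the classical cadherin, and plakoglobin, plakophilins and desmoplakin link them to keratin filaments. The trophectoderm is the first epithelium of the mammalian embryo, and cadherin adhesion and desmosomes are known parts of the cell layer that lets the blastocyst hold its fluid-filled cavity.

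The 8 libraries held between 106402848 and 158034430 reads, recovered from the deposited RPKM (reads per kilobase of exon, divided by a scaled library size). The member with the fewest reads was PKP2, with 12599 to 24740 per library, so counting error was small beside the spread between outgrowths. Trophectoderm markers were present throughout. KRT8, a keratin of simple epithelia, averaged 1984 RPKM on day 41 and 2537 RPKM on day 35, and GATA3, a trophoblast transcription factor, averaged 93.8 and 90.1 RPKM. All 9 genes of the trophectoderm marker list were in the table. On day 41, 2 of them, GATA3 included, had higher and 7 had lower values than on day 35. Their median log2 fold change was -0.25, beside 0.01 over all tested genes, and none passed the test described below. Library A stood apart: its mean correlation with the other libraries over tested genes was 0.954, against 0.966 to 0.976 for the others, and results that rest on it are given with and without it.

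All 9 genes were expressed in every outgrowth, from 27.1 RPKM for PKP2 in library D to 359 RPKM for CDH1 in library G. CDH1 stood higher than 98.5% of the genes in the table by its mean over the 8 libraries, and PKP2, the lowest of the 9, higher than 84.0%. Together they made up 0.236% to 0.263% of all RPKM on day 41 and 0.187% to 0.312% on day 35, with both ends of the day 35 range set by single libraries, A at the bottom and D at the top. On the RPKM scale, which is per length, the order of the 8-library means was CDH1, CTNNA1, DSC2, JUP, CTNNB1, DSG2, CTNND1, DSP and PKP2. CDH1 exceeded CTNNA1, CTNNA1 exceeded DSC2, CTNNB1 exceeded DSG2 and DSP exceeded PKP2 in 8 of 8 libraries with no overlap of their ranges. DSC2 and JUP did not separate, at 177 and 171 RPKM with DSC2 higher in 5 of 8 libraries, nor did DSG2 and CTNND1, at 105 and 104 RPKM with DSG2 higher in 4 of 8. JUP was above CTNNB1 in 7 of 8 libraries and CTNND1 above DSP in 8 of 8, although the ranges of both pairs overlapped.

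**Figure D1:**
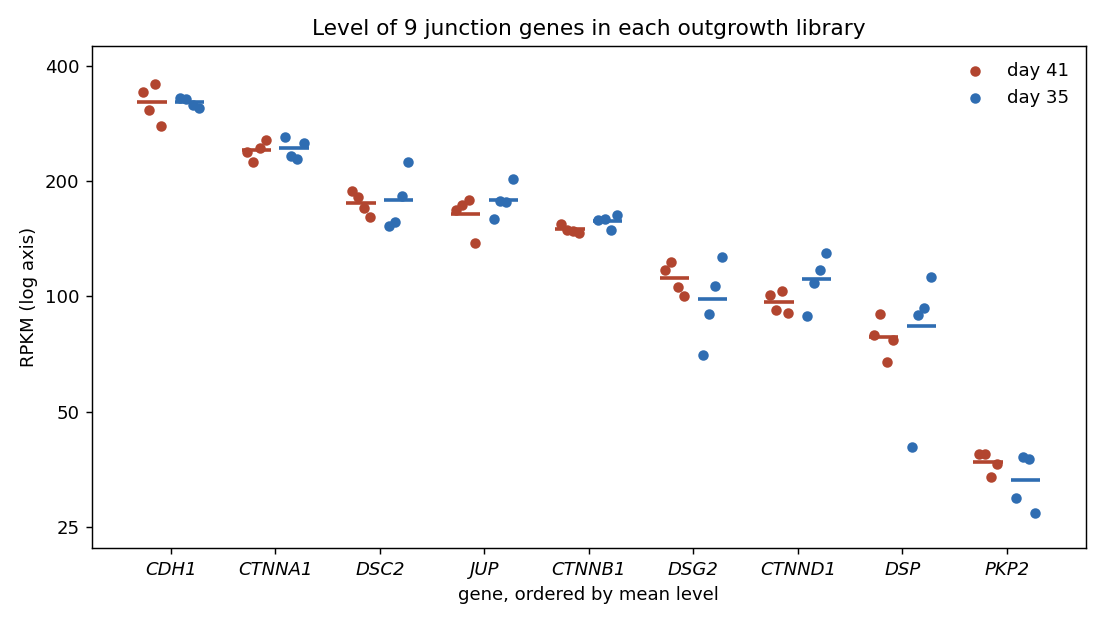
RPKM on a log axis of the 9 junction genes in each library, with day 41 (red) left of day 35 (blue); each point is 1 library and the bar is the mean of 4. The genes run from CDH1, between 278 and 359 RPKM, down to PKP2, between 27.1 and 38.8 RPKM, and the days overlap in each of the 9.

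Between the days none of the 9 genes was called as changed, which does not show that their levels were equal. The 95% intervals of the log2 fold change left room for a change, the widest being -0.65 to 0.64 for DSP. The test was limma-trend on log2(RPKM + 1), with the p-value adjusted over all 12582 tested genes by the Benjamini-Hochberg method at a threshold of 0.05, and all 9 genes entered it. It called 6 of the 12582 genes, or 0.0477%, so 0 of 9 is near that background. No member had an unadjusted p under 0.05, against 11.7% of all tested genes, and the days overlapped in all 9, whereas they did not overlap in 8.2% of tested genes. The log2 fold change was above 0 in 2 members (DSG2 and PKP2) and below 0 in 7. Their median was -0.01, beside 0.01 over all tested genes. Under array weights, which down-weight variable libraries, limma-trend called 1044 genes, or 8.3%, and again 0 of the 9, the smallest adjusted p being 0.0783 for CTNND1. In limma-voom on the recovered reads, 2 genes were called, or 0.0159%, and no member was among them. In the authors' deposited table, where 1.76% of genes have an FDR under 0.05, the FDR of the 9 lies between 0.807 (CTNND1) and 0.999.

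**Figure D2:**
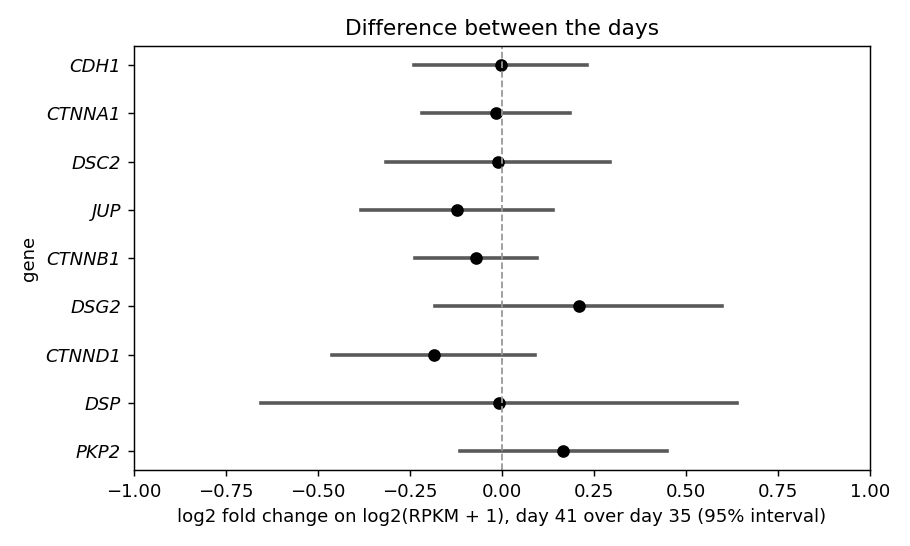
Log2 fold change of day 41 over day 35 on the log2(RPKM + 1) scale (point) with its 95% interval from limma-trend (line), n = 4 per day. All 9 intervals include 0, the narrowest for CTNNB1 (-0.24 to 0.10) and the widest for DSP (-0.65 to 0.64).

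CDH1 (ENSBTAG00000015991, chromosome 18, 36046665 to 36119368 on ARS-UCD1.2) encodes E-cadherin, the classical cadherin of epithelia. It had 340, 307, 359 and 278 RPKM in libraries E, F, G and H on day 41, and 328, 328, 316 and 310 RPKM in A, B, C and D on day 35. The day 35 libraries lie inside the range of the day 41 libraries, whose extremes are G and H. The means were 321 ± 35.6 and 321 ± 9.09 RPKM (SD, n = 4 each), and the log2 fold change was -0.00 with a 95% interval of -0.24 to 0.23. On a linear scale that interval runs from 0.847 to 1.17 times the day 35 level, on values with 1 RPKM added. Library A, which stood apart in other genes, was close to the mean for CDH1.

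CTNNB1 (ENSBTAG00000016420, chromosome 22, 13798884 to 13845848) encodes beta-catenin, which binds the cadherin tail and is also the transcriptional effector of Wnt signalling. Its values were 155, 149, 148 and 146 RPKM in E, F, G and H, against 158, 159, 149 and 163 RPKM in A, B, C and D. It was the steadiest of the 9, with a coefficient of variation (SD over mean) of 3.96% over the 8 libraries, lower than in all but 0.776% of the 6312 tested genes with a mean of 10 RPKM or more. Its fold change was -0.07 on the log2 scale (95% interval -0.24 to 0.10, adjusted p = 0.749 by limma-trend).

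CTNNA1 (ENSBTAG00000014182, chromosome 7, 49921360 to 50255751) encodes alpha-catenin, which joins beta-catenin to actin. It stood at 238, 224, 244 and 255 RPKM in E, F, G and H and at 261, 232, 228 and 252 RPKM in A, B, C and D. Its 8 values stayed within a factor of 1.17 of each other, and the days were interleaved. The days differed by -0.02 on the log2 scale (95% interval -0.22 to 0.19). A gene without a symbol, ENSBTAG00000004415, lies inside its span on the other strand at 5.80 RPKM, with 0 exon bases in common.

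CTNND1 (ENSBTAG00000002411, chromosome 15, 80967264 to 81012627) encodes the catenin that binds the cadherin tail near the membrane and keeps the cadherin at the cell surface. Its values were 101, 92.0, 103 and 90.4 RPKM in E, F, G and H, against 88.9, 108, 117 and 130 RPKM in A, B, C and D. Library A held the lowest value of all 8, while B, C and D were all above the day 41 libraries. The log2 fold change was -0.19 (95% interval -0.46 to 0.09, adjusted p = 0.596 by limma-trend). Without library A it was -0.29, lower in all 4 day 41 libraries than in the 3 remaining day 35 libraries, and it still did not pass (adjusted p = 0.137 by limma-trend). Without library D it was -0.11. CTNND1 has the second longest exon sequence of the 9, at 6164 bases, and when libraries were centred on genes of like exon length (described with DSP) its deviation in A turned to 0.13, from -0.21 before that step. The 4 day 41 libraries then lay between -0.25 and -0.00, and the 4 day 35 libraries between 0.10 and 0.20. The log2 fold change of -0.29 did not pass (unadjusted p = 0.00445, adjusted p = 0.207 by limma-trend). Of the 12582 tested genes, 1711 had an unadjusted p under 0.05 by limma-trend after centring by exon length, and 2464 without library A. How many genes had days that did not overlap in these settings was not counted, so no background stands beside that separation.

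JUP (ENSBTAG00000017685, chromosome 19, 41961520 to 41987894) encodes plakoglobin, a close relative of beta-catenin that is found in both adherens junctions and desmosomes. It had 168, 173, 178 and 138 RPKM in E, F, G and H, and 159, 178, 176 and 203 RPKM in A, B, C and D. Library H was the lowest and library D the highest, with the other 6 between 159 and 178 RPKM. The log2 fold change was -0.12 (95% interval -0.38 to 0.14, adjusted p = 0.722 by limma-trend).

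DSG2 and DSC2 encode the desmoglein and the desmocollin of simple epithelia. They lie 373817 bases apart on chromosome 24 on opposite strands, DSG2 (ENSBTAG00000021923) at 25603584 to 25654023 and DSC2 (ENSBTAG00000040584) at 26027840 to 26063705. DSG2 had 117, 123, 105 and 99.9 RPKM in E, F, G and H, against 70.1, 90.1, 106 and 126 RPKM in A, B, C and D. Day 35 held both its lowest library, A, and its highest, D. DSC2 had 189, 181, 170 and 161 RPKM in E, F, G and H, and 152, 156, 182 and 224 RPKM in A, B, C and D. The extremes again were A and D. The day 35 spread was wider than that of day 41 in these libraries, with coefficients of variation of 9.35% on day 41 and 24.3% on day 35 for DSG2, and of 6.97% and 18.5% for DSC2. The log2 fold changes were 0.21 for DSG2 (95% interval -0.18 to 0.60, adjusted p = 0.686 by limma-trend) and -0.01 for DSC2 (-0.31 to 0.29, adjusted p = 0.986). The DSG2 value rested on single libraries, at 0.06 without library A and 0.34 without library D, and passed in neither case.

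DSP (ENSBTAG00000015106, chromosome 23, 47824435 to 47868337) encodes desmoplakin, the plakin that anchors keratin filaments at the desmosome. It varied most of the 9, at 79.2, 89.8, 67.5 and 77.0 RPKM in E, F, G and H and at 40.4, 89.2, 93.2 and 112 RPKM in A, B, C and D. Library A was below all others and library D above them, a 2.78-fold range. The log2 fold change was -0.01 (95% interval -0.65 to 0.64), which on a linear scale runs from 0.635 to 1.56 times the day 35 level. Without library A it was -0.32, and without library D 0.16, and neither passed the threshold. With array weights it was -0.23 (adjusted p = 0.230 by limma-trend), and with library totals 0.02. In the authors' deposited table the log2 fold change of DSP is -0.20, with an FDR of 0.909.

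DSP also has the longest exon sequence of the 9, at 9482 bases, and levels in library A moved with exon length across the table. Among tested genes with a mean of 10 RPKM or more, the 74 with over 8000 exon bases had a median deviation from their gene mean of -0.68 (log2) in library A and of 0.24 in library D. The 807 genes with up to 1000 exon bases had 0.42 in A and -0.21 in D. The deviation of DSP was -0.94 in A and 0.52 in D. When each library was centred on the median of genes of like exon length, a step chosen after the data were seen, DSP in A came to -0.26 and in D to 0.28. The log2 fold change of DSP was then -0.17 and did not pass (adjusted p = 0.571 by limma-trend). The 78 ribosomal protein genes, which are short, made up 16.04% of all RPKM in A and at most 12.5% in the other libraries. The part of exon length or RNA quality in the low DSP of library A was not tested further. DSG2, with 4742 exon bases, remained the lowest in A after the same step, at -0.44 against -0.55 before it.

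**Figure D3:**
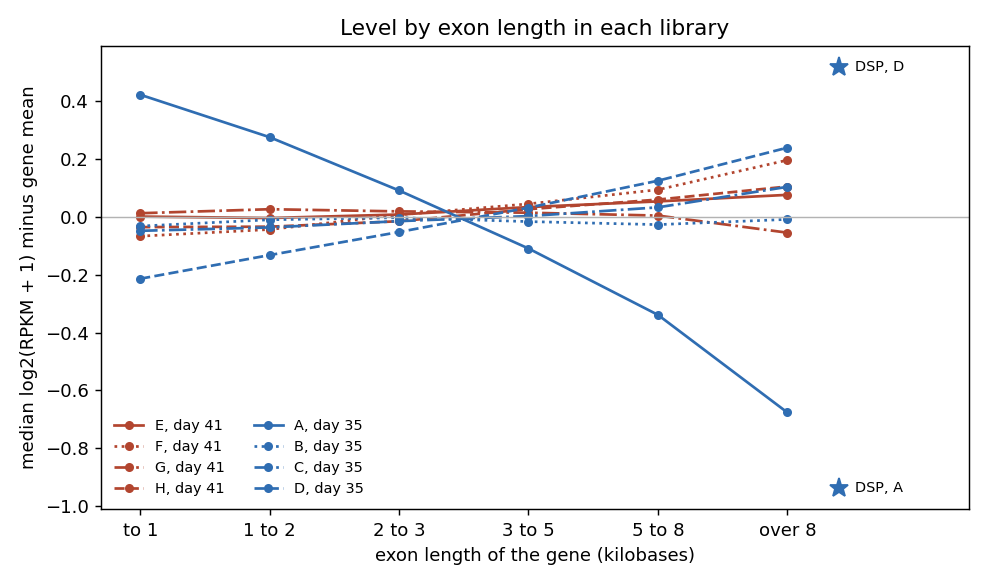
Median deviation of each library from the gene mean, in log2(RPKM + 1), for tested genes of 10 RPKM or more grouped by exon length in kilobases; red lines are day 41, blue lines day 35 and the stars the DSP values in A and D. Library A falls from 0.42 in the shortest genes to -0.68 in the longest, and D runs the other way, from -0.21 to 0.24.

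PKP2 (ENSBTAG00000002651, chromosome 5, 77001511 to 77154610) encodes a plakophilin, which binds desmoplakin and the desmosomal cadherins. It stood at 38.8, 38.7, 33.9 and 36.5 RPKM in E, F, G and H, against 29.7, 38.1, 37.6 and 27.1 RPKM in A, B, C and D. Libraries A and D, the opposite extremes for DSP, were both low for PKP2, and the other 6 lay between 33.9 and 38.8 RPKM. The log2 fold change was 0.17 (95% interval -0.12 to 0.45, adjusted p = 0.648 by limma-trend). YARS2 and DNM1L overlap its span, at 4.18 and 35.1 RPKM, and share 0 exon bases with it.

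**Figure D4:**
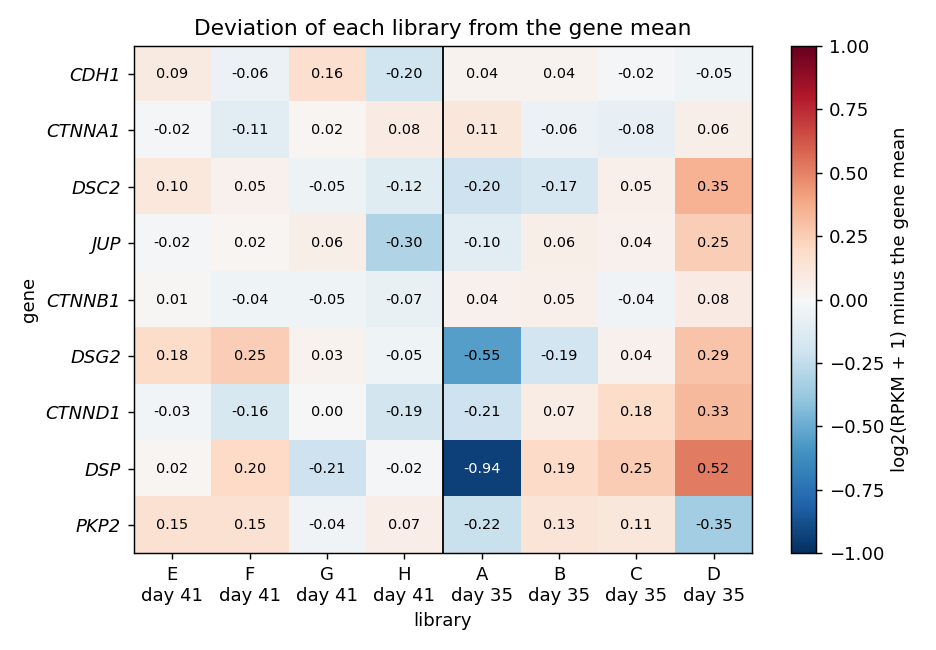
Deviation of each library from the gene mean in log2(RPKM + 1), genes in rows by level and libraries in columns, day 41 (E to H) left of day 35 (A to D). Library D holds the highest value of 6 genes and library A the lowest of 4, with DSP in A at -0.94, while CDH1, CTNNA1 and CTNNB1 stay within 0.20 of their mean.

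Library D held the highest value of 6 of the 9 genes (CTNNB1, CTNND1, DSP, DSG2, DSC2 and JUP) and the lowest of PKP2. Library A held the lowest of CTNND1, DSP, DSG2 and DSC2 and the highest of CTNNA1. On day 41, library H held the lowest CDH1, CTNNB1 and JUP of all 8 libraries. The median coefficient of variation of the 9 genes was 12.7%, beside 14.8% over tested genes of 10 RPKM or more. CTNNB1, CTNNA1 and CDH1 were the steadiest members, at 3.96%, 5.59% and 7.51%, and DSP the least steady, at 26.1%.

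Across the 8 libraries the members did not rise and fall as 1 block. Of 36 pairs, none had a correlation that passed the threshold after Benjamini-Hochberg adjustment of exact permutation p-values, and 4 had an unadjusted p under 0.05 for Pearson's r. Those were DSG2 with DSC2, DSP with DSG2, CTNND1 with JUP, and CTNNA1 with PKP2. DSG2 and DSC2 had r = 0.82 (exact permutation p = 0.0143, adjusted p = 0.258) and Spearman's rho = 0.93 (exact permutation p = 0.00223, adjusted p = 0.0804). Leaving out A and D, the 2 libraries farthest from the median of DSG2, gave r = 0.88, so this relation does not rest on them. DSP and DSG2 had r = 0.82 (exact permutation p = 0.0230, adjusted p = 0.276) and rho = 0.74 (exact permutation p = 0.0458, adjusted p = 0.346), and without A and D their r was 0.01. That relation rests on those 2 libraries. CTNND1 and JUP had r = 0.81 (exact permutation p = 0.0130, adjusted p = 0.258) and rho = 0.86 (exact permutation p = 0.0107, adjusted p = 0.193), with r = 0.64 without A and D. CTNNA1 and PKP2 ran opposite to each other, with r = -0.73 (exact permutation p = 0.0422, adjusted p = 0.316) and rho = -0.71 (exact permutation p = 0.0576, adjusted p = 0.346), and r = -0.59 without A and F. CDH1 and its partner CTNNB1 had r = 0.25 (exact permutation p = 0.557, adjusted p = 0.802) and rho = 0.17 (exact permutation p = 0.703, adjusted p = 0.917), with r = 0.24 without G and H. After centring by exon length, r was 0.88 for DSG2 with DSC2 and 0.77 for CTNND1 with JUP, while DSP with DSG2 came to 0.52, CTNNA1 with PKP2 to -0.52 and CDH1 with CTNNB1 to 0.55. The exact permutation p of the last 3 was 0.189, 0.198 and 0.160 (adjusted p = 0.464 each), so both pairs of these with an unadjusted p under 0.05 before that step no longer had one. CTNNB1 with CTNND1 (r = 0.72, exact permutation p = 0.0428) and CTNNA1 with DSG2 (r = -0.73, exact permutation p = 0.0465) had one only after it (adjusted p = 0.419 each). The first had r = 0.81 without A and B, and the second r = 0.07 without A and F.

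Ratios of members within a library do not depend on how libraries were scaled to each other. Per length, E-cadherin RNA was 1.91 to 2.42 times that of beta-catenin on day 41 and 1.91 to 2.12 times on day 35. The CTNNA1 to CTNNB1 ratio averaged 1.61 ± 0.112 on day 41 and 1.55 ± 0.0806 on day 35 (SD, n = 4 each), with the smallest coefficient of variation of the 6 ratios over all 8 libraries, at 6.08%. Plakoglobin RNA was near that of its relative beta-catenin, with a JUP to CTNNB1 ratio of 1.10 ± 0.112 on day 41 and 1.14 ± 0.102 on day 35. CTNND1 to CTNNB1 averaged 0.646 ± 0.0361 and 0.706 ± 0.108, and PKP2 to DSP 0.474 ± 0.0309 on day 41 and 0.452 ± 0.206 on day 35. In the last, library A at 0.735 and library D at 0.242 were the extremes. Without A, the day 41 values of 0.431 to 0.502 all lay above those of B, C and D, at 0.427, 0.404 and 0.242. The log2 difference of PKP2 to DSP was 0.18 with all 8 libraries, 0.45 without A and -0.09 without D. DSP has 9482 exon bases and PKP2 4192. After centring by exon length the difference over all 8 libraries was 0.29 (exact permutation p = 0.0857, adjusted p = 0.171).

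With all libraries included, the desmoglein to desmocollin ratio was the only 1 of the 6 whose days did not overlap. How often ratios of other gene pairs separate the days was not counted, so no background stands beside this. DSG2 to DSC2 was 0.622, 0.675, 0.621 and 0.620 in E, F, G and H, against 0.460, 0.578, 0.582 and 0.564 in A, B, C and D. The mean log2 ratio was higher by 0.22 on day 41, and all 4 day 41 libraries lay above all 4 day 35 libraries. The exact permutation p was 0.0286, the smallest that 70 assignments allow, and after adjustment over the 6 ratios it did not pass (adjusted p = 0.171). A single ratio at that smallest p cannot pass the adjustment over 6 ratios, so the adjusted value does not decide whether this ratio differed. Leaving out any 1 library gave differences of 0.14 to 0.25, the lowest without A, where the value for day 35 rests on 3 libraries. For the other 5 ratios the exact permutation p lay between 0.371 and 0.629.

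The paralogs of the members were compared with them by RNA level. Genes were matched by symbol, and 2035 of the 14970 carried none, so a paralog not found may still be expressed. Of 19 other cadherins listed, 6 were in the table, and their summed level was 6.60 to 7.84 RPKM on day 41 and 8.22 to 20.2 RPKM on day 35, against at least 278 RPKM of CDH1 in any library. CDH3, the placental cadherin gene whose span lies 29530 bases from that of CDH1, had 1.80, 3.53, 2.20 and 2.65 RPKM in E, F, G and H and 6.14, 7.63, 3.18 and 3.86 RPKM in A, B, C and D. It differed by -0.77 on the log2 scale (95% interval -1.34 to -0.20). It did not pass limma-trend (adjusted p = 0.313), and library F overlapped the day 35 range. In the authors' deposited table its FDR is 0.0475. CDH17, the intestinal cadherin, reached 10.4 RPKM in library C and was at 0.528 to 4.19 RPKM in the other 7.

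The cadherins of mesenchyme were low. CDH2, the neural cadherin that mesenchymal cells carry, did not exceed 0.264 RPKM. CDH11, a cadherin of mesenchyme, was listed at 0 in libraries E, G, A and C, at 0.00977 RPKM in H, 0.378 in D, 0.628 in F and 5.72 in B. VIM, a filament protein of mesenchymal cells, was likewise highest in B, at 86.4 RPKM, against 0.409 to 17.2 RPKM elsewhere. TAGLN, an actin-binding protein of smooth muscle and the most abundant gene of the mesenchyme list, was spread differently, at 31.6, 31.4, 30.4 and 145 RPKM in E, F, G and H, against 75.1, 159, 73.4 and 133 RPKM in A, B, C and D. ACTA2, the smooth muscle actin, had 1.199, 0.816, 0.344 and 2.73 RPKM in E, F, G and H and 7.06, 17.8, 3.19 and 3.66 RPKM in A, B, C and D, lower in all 4 day 41 libraries. Its log2 fold change of -1.80 did not pass limma-trend (adjusted p = 0.242), nor did that of TAGLN (-1.16, adjusted p = 0.431). In the authors' deposited table the FDR of ACTA2 is 0.000987 and that of TAGLN 7.64e-05. The mesenchyme list, which includes CDH2 and CDH11, had 13 of 13 genes in the table and summed to 33.3 to 166 RPKM on day 41 and 90.5 to 413 RPKM on day 35, with the top in library B. Of its 6 tested genes, 5 had lower values on day 41, with a median log2 fold change of -0.94, and 0 were called. CDH1 in that library was 328 RPKM, with 310.0 to 328 RPKM in the other day 35 libraries. The part of such cells in the results was not tested.

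Among desmosomal cadherins, DSG3, a desmoglein best known from stratified epithelia, followed DSG2 at 43.8, 29.5, 39.6 and 31.8 RPKM in E, F, G and H and 49.2, 41.8, 47.3 and 54.2 RPKM in A, B, C and D. Its log2 fold change of -0.41 did not pass limma-trend (adjusted p = 0.328), and library E alone overlapped the day 35 range. DSC3, the desmocollin of stratified epithelia, differed between outgrowths, at 9.48 RPKM in H, 9.72 in B and 7.97 in D and at 0.718 to 2.18 RPKM in the other 5. DSC1 stayed under 0.2 RPKM. All 3 plakophilins were present, PKP3 at 45.6 RPKM over the 8 libraries, above PKP2 at 35.1, with PKP1 at 24.5. PERP, a membrane protein of desmosomes, had 162 to 211 RPKM. The plakins EVPL and PPL, which like desmoplakin meet keratin filaments, were at 42.7 and 33.6 RPKM over the 8 libraries. Of this list of 13, 8 were tested and 0 called, with 3 higher and 5 lower values and a median log2 fold change of -0.04.

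**Figure D5:**
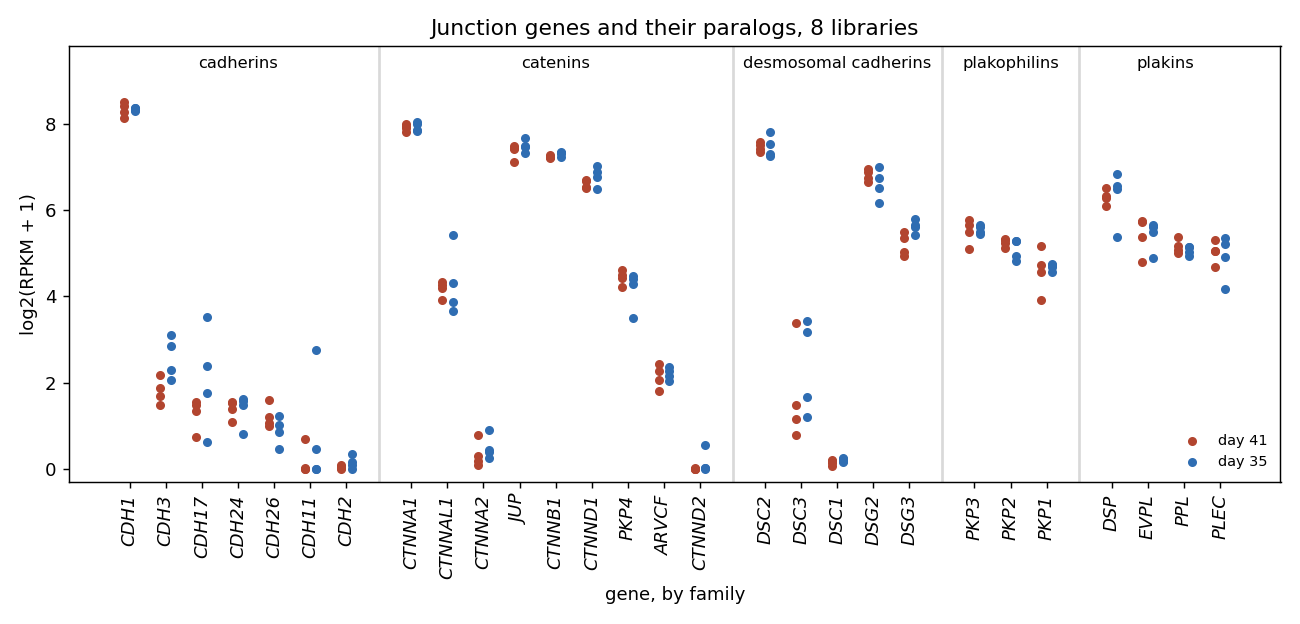
Level as log2(RPKM + 1) of the junction genes and their paralogs, grouped by family, with day 41 (red) left of day 35 (blue) and 1 point per library. CDH1 lies far above the other cadherins, CTNNA1 above CTNNA2 and DSC2 above DSC3 and DSC1, while the 3 plakophilins and 4 plakins lie closer together.

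Other catenins were minor. CTNNAL1, a relative of alpha-catenin, was at 11.7 to 19.2 RPKM in 7 libraries and at 41.7 RPKM in A. PKP4 and ARVCF, relatives of CTNND1, averaged 19.1 and 3.55 RPKM over the 8 libraries, and CTNNA2 and CTNND2, best known from the nervous system, 0.356 and 0.0629 RPKM. The actin-binding adaptors were abundant, led by ZYX (zyxin), whose mean was 419 ± 38.8 RPKM for day 41 and 427 ± 89.4 RPKM for day 35, and by ACTN4, an actin cross-linker, at 235 ± 30.0 and 245 ± 11.5 RPKM. AJUBA, a LIM protein of adherens junctions, had 30.6, 27.5, 28.6 and 26.7 RPKM in E, F, G and H, against 19.6, 19.9, 20.2 and 22.5 RPKM in A, B, C and D. It was higher in all 4 day 41 libraries, by 0.44 on the log2 scale (95% interval 0.26 to 0.63), but did not pass limma-trend over all genes (adjusted p = 0.160). Of the 15 tested catenins and adaptors, 7 had higher and 8 lower values and 0 were called. The 5 genes of the nectins, a second adhesion system at the same junction, and of afadin were all tested and not called, with NECTIN2 highest (mean 84.9 ± 8.10 RPKM for day 41 and 97.4 ± 14.5 RPKM for day 35).

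The keratins that desmosomes anchor had lower values on day 41 in 4 of 4 genes, with a median log2 fold change of -0.35 beside 0.01 over all tested genes, and none passed. KRT7 averaged 218 ± 26.1 RPKM on day 41 and 277 ± 35.7 RPKM on day 35 (log2 fold change -0.34, adjusted p = 0.353 by limma-trend), and KRT19 2003 ± 276 and 2540 ± 358 RPKM (-0.34, adjusted p = 0.498). Library A held the highest level of all 4 keratins while it held the lowest DSP. Levels in library A moved with exon length across the table, as described with DSP. The part of exon length in this contrast was not tested.

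Transcription factors known to act on CDH1 were measured too. Of 10 repressors listed, 7 were in the table. The most abundant was TCF3, at 5.91 to 8.59 RPKM, lowest in library A. TCF4 was at 0.958 to 3.74 RPKM, and TWIST1 at 0.866 to 2.32 RPKM in 7 libraries and 4.71 RPKM in A. ZEB1 did not exceed 0.0946 RPKM, SNAI2 reached 3.18 RPKM in library B and stayed at or under 0.305 RPKM elsewhere, and SNAI1 was at 2.04 to 4.605 RPKM. The 9 activators of epithelial genes were all tested, led by ELF3, an epithelial ETS factor, with a mean of 80.7 RPKM for day 41 and 101.4 RPKM for day 35, and by GRHL1, a grainyhead factor, at 53.8 ± 5.71 and 54.3 ± 10.4 RPKM. GRHL2, which in mouse is required for normal E-cadherin levels, was at 9.63 ± 0.418 and 8.36 ± 0.294 RPKM, higher in all 4 day 41 libraries, and did not pass (log2 fold change 0.18, adjusted p = 0.426 by limma-trend). Neither list held a called gene. Of 16 tested genes of cadherin turnover and trafficking, 12 had higher values, beside 6621 of all 12582 tested genes, and 0 were called. The median log2 fold change of the list was 0.08, beside 0.01 over all tested genes. Library A held the lowest value of several of these genes, ADAM17 among them, and the count was not taken without A. ADAM17, a sheddase, was higher in all 4 day 41 libraries with 38.1, 37.4, 44.9 and 43.0 RPKM in E, F, G and H against 21.5, 31.1, 33.1 and 35.0 RPKM in A, B, C and D, and did not pass (0.44, adjusted p = 0.331).

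The destruction complex is the set of proteins that mark free beta-catenin for breakdown. All 10 of its listed genes were in the table and 9 were tested, with CSNK1A1 averaging 76.2 ± 3.95 RPKM for day 41 and 77.6 ± 2.49 RPKM for day 35 and GSK3A at 31.7 ± 2.33 and 33.2 ± 0.570 RPKM. Among DNA-binding partners of beta-catenin, TCF7L1 was the most abundant at 44.3 ± 8.16 RPKM (SD, n = 8). AXIN2, a common target of Wnt signalling, averaged 0.851 ± 0.416 RPKM for day 41 and 1.15 ± 0.325 RPKM for day 35. NKD2, another listed target, averaged 1.69 ± 1.18 and 4.94 ± 2.23 RPKM (log2 fold change -1.21, adjusted p = 0.355 by limma-trend). None of the tested genes of the destruction complex, the nuclear partners or the Wnt targets was called.

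For each member, the closest patterns over the 8 libraries were sought among 11031 tested genes with a unique symbol, by Pearson's r on log2(RPKM + 1). The points are the same 8 libraries for every gene, and the values are a description with no test. The levels searched were not centred by exon length, with which levels in libraries A and D moved (described with DSP). IFT74 (r = 0.97) and LYRM4 (0.96) were closest to CDH1, and MARS2 (0.94) and CCL26 (0.94) to CTNNB1. KDELR1 (0.96) and HESX1 (0.95) were closest to CTNNA1, and MYO5C (0.99) and CRY2 (0.94) to CTNND1. ETV4 (0.96) and UNC13B (0.94) were closest to JUP, ATAD5 (0.97) and STXBP4 (0.97) to DSG2, and SEPTIN3 (0.98) and TBCCD1 (0.96) to DSC2. YOD1 and WDFY3 were closest to DSP, both at 0.99, and their r without library A was 0.97 and 0.96. UBE2G1 (0.95) and CASP6 (0.94) were closest to PKP2.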

How the data were processed

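RPKM per gene and library were computed by the authors and deposited in 1 table. Among tools, edgeR, featureCounts, HISAT2 and FastQC are listed in the submitters' processing notes, with the build ARS-UCD1.2. Versions and strand setting are not given in the sources used here. The deposited table also holds log2 fold changes and mean log2 CPM, a likelihood ratio score per gene, p-values and FDR of the authors' own comparison, as its header names them, and exon lengths. Its 4 columns per day name the day but not the sample, so libraries were lettered in column order.

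Reads were recovered from the spacing of low values: in each library, RPKM multiplied by exon length came in equal steps, and 100% of values fell within 0.01 of a whole number of reads. Genes reaching 0.5 RPKM in at least 4 libraries were tested with limma 3.58.1 in R 4.3.3 (limma-trend on log2(RPKM + 1), two-sided, no covariate). Adding 1 understates the change of low genes. The script was tested on simulated data. Ratios were compared by two-sided exact permutation over 70 assignments and pairs by permuting all pairings. No label says that outgrowths came from separate cultures beyond individual embryos. The p-values between the days therefore set a difference against the spread among these libraries and against no wider one. Members and gene lists were chosen with earlier results of these data known. Genes named from a list were its 2 most abundant, its 2 with the smallest p, and paralogs of members. GATA3, EVPL, ZEB1, SNAI2 and AXIN2 were named after their values were seen. limma-voom was run on the recovered reads as an alternative. The planned edgeR and DESeq2 fits were not run on those reads.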

Additional observations from a re-analysis of the deposited data

Results flagged for a closer look

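Within each day, a library was marked when its gap to the nearest other library took a larger share of the range of the 4 than Dixon's 95% critical value, which chance gives in about 1 of 20 groups. Of 174 groups of 4 examined (the 9 members, the 6 ratios, paralogs of members, and the most abundant genes and those of smallest p from the gene lists, with 5 other genes named in the text), 18 held such a library, and no single member did. The DSG2 to DSC2 ratio was high in library F on day 41, at 0.675 against 0.620 to 0.622 in the other 3, and low in library A on day 35, at 0.460 against 0.564 to 0.582. Library A also stood apart on day 35 for NECTIN1 (8.98 RPKM), ARF6 (444 RPKM), FURIN (167 RPKM), TCF3 (5.91 RPKM), TCF7L1 (25.8 RPKM) and KRT7 (330.0 RPKM). Library B stood apart on day 35 for CDH11 (5.72 RPKM), CTNND2 (0.457 RPKM), SNAI2 (3.18 RPKM), VIM (86.4 RPKM) and AFP (95.4 RPKM), a protein of yolk sac endoderm. On day 41, library F stood apart for CDH11 (0.628 RPKM), ZYX (477 RPKM) and CTNND2 (0.0210 RPKM), and library H for DSC3 (9.48 RPKM) and TAGLN (145 RPKM).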

How the results depend on the processing

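No member was called under any of the 18 alternatives to the fit, planned or added. The number of genes called over the whole table, 6 in the fit reported, was 3 with a pseudocount of 0.1, 3 with no filter, 3 with a filter of 1 RPKM in all libraries, 2 with limma-voom, 1044 with array weights, 9 after centring by exon length and from 0 to 43 with 1 library left out. It was 43 without library A, 5 without G or H, and 0 by limma-trend without B, C, D, E or F, where 1040, 1125, 1705, 1051 and 1150 genes had an unadjusted p under 0.05. The log2 fold changes of CTNNB1, CTNND1, DSG2, JUP and PKP2 kept their sign throughout but not their size: with 1 library left out they ran from -0.096 to -0.055 for CTNNB1, -0.29 to -0.11 for CTNND1, 0.059 to 0.34 for DSG2, -0.18 to -0.042 for JUP and 0.078 to 0.24 for PKP2. The ends were set by leaving out A or D for CTNND1 and DSG2, A or H for JUP, and D or B for PKP2. Those of CDH1, CTNNA1, DSP and DSC2, all within 0.02 of 0, turned to 0.023, 0.011, 0.018 and 0.016 with library totals, and those of CDH1, CTNNA1 and DSC2 to 0.037, 0.034 and 0.016 with array weights. That of DSP kept its sign but not its size with array weights, at -0.23, and after centring by exon length, at -0.17. With 1 library left out the range was -0.060 to 0.062 for CDH1, -0.046 to 0.018 for CTNNA1, -0.32 to 0.16 for DSP and -0.081 to 0.10 for DSC2. The log2 ratio of JUP to CTNNB1 turned to 0.018 without library H (range -0.11 to 0.018 with 1 library left out) and that of PKP2 to DSP to -0.085 without library D (-0.085 to 0.45). Centring by exon length, added after seeing the data, left the DSG2 to DSC2 difference at 0.17 (exact permutation p = 0.0286, adjusted p = 0.171). That p is again the smallest possible, which for a single ratio cannot pass the adjustment over 6. With 7 libraries an exact permutation test of a ratio has few assignments, so leaving 1 out was read for size and sign only. edgeR and DESeq2 on recovered reads were not run. No paired analysis was possible because the days share only 1 replicate number and the columns carry none.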

Other observations

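The 7 proliferation genes listed were all tested and all had higher values on day 41, with a median log2 fold change of 0.21, beside 0.01 over all tested genes, and 0 were called by limma-trend. BUB1, a mitotic checkpoint kinase, averaged 31.1 RPKM on day 41 and 23.5 RPKM on day 35. The summed level of the 7 genes was 275 to 317 RPKM on day 41, against 289 to 305 RPKM in B, C and D and 194 RPKM in A on day 35. Library A held the lowest value of all 8 libraries for each of these genes except PCNA. The count and the median therefore rest in part on A, and they were not taken without it. CCNB1 had 53.6 RPKM in A and 72.9 to 81.9 RPKM in B, C and D, against 74.5 to 87.6 RPKM on day 41. BUB1 had 16.3 RPKM in A and 24.8 to 27.2 RPKM in B, C and D, against 26.2 to 35.7 RPKM on day 41. Markers of hypoblast and yolk sac endoderm, of which 9 of 10 were in the table, summed to 14.8 to 166 RPKM on day 41 and 28.3 to 516 RPKM on day 35, with the top again in library B. APOA1, a lipid-carrying protein of yolk sac endoderm, made up 336 RPKM of that.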
